A study of Homo sapiens with 32 samples.

Results

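The 72 sgRNAs against the enzymes of glycolysis and the main glucose transporter were followed through a pooled CRISPR-knockout screen of protein kinase A (PKA) activity. They were chosen by a fixed list of 18 genes (*SLC2A1*, *HK1*, *HK2*, *GPI*, *PFKL*, *PFKM*, *PFKP*, *ALDOA*, *ALDOC*, *TPI1*, *GAPDH*, *PGK1*, *PGAM1*, *ENO1*, *ENO2*, *PKM*, *LDHA* and *LDHB*) with 4 sgRNAs each, out of 74987 sgRNAs and 18638 genes in the deposited table. The screen was done in RKO, an established human colon carcinoma line labelled as wild type, in which Cas9 and KinprolaPKA had been integrated by lentivirus, so that the unsorted control carried them too. KinprolaPKA is a split-HaloTag recorder fused to EGFP that binds the fluorescent substrate CPY-CA when PKA phosphorylates it, and the ratio of CPY-CA to EGFP is the normalized labeling. After transduction with the HD CRISPR sublibrary A, cells were labeled and sorted into a high, a low and a medium population of that ratio (the labels call the medium one basal), and a day 0 control (T0) was sequenced beside them. Each population was sequenced as 1 library in each of 2 screens, numbered replicates 2 and 3. Before the screen, the RKO cells with Cas9 and KinprolaPKA had been selected with blasticidin and by EGFP sorting, and were not described as 1 clone. Cells that had taken up the sgRNA library were selected with puromycin.

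Glycolysis splits glucose into pyruvate, and lactate dehydrogenase returns the NAD+ that the pathway uses. Glucose enters through facilitative transporters such as GLUT1 (*SLC2A1*) and is trapped by hexokinase. The upper steps up to aldolase spend ATP, and the lower steps, from glyceraldehyde-phosphate dehydrogenase to pyruvate kinase, return it. PKA is the cAMP-dependent kinase, which in liver controls glycolysis through the enzyme that makes fructose 2,6-bisphosphate and through the liver form of pyruvate kinase. Several steps are served by more than 1 isozyme, so that a single knockout need not stop them.

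The libraries held 23369720 to 31777138 reads, with medians of 260 to 356 reads per sgRNA. Over the 8 libraries the 72 sgRNAs had a median of 277.5 reads, 6 of their 576 values were 0, and 2 sgRNAs (*PGAM1* sgRNA 1 and *ALDOA* sgRNA 2) averaged fewer than 50 over the 8. Reads given below were scaled to the mean library total. For the scale of the screen, sgRNAs against *PRKACA*, the catalytic subunit of PKA, changed by a log2 of −1.60 in high versus low, and those against *FZR1*, a cell cycle activator of the anaphase-promoting complex, by 4.15. The 278 sgRNAs without a target (against no human sequence) averaged a log2 of −0.11 in high versus low.

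The high versus low comparison asks which knockouts were more frequent among strongly than among weakly labeled cells. Of the 18 genes, 6 were higher in the high population and 0 were lower at a false discovery rate (FDR) under 0.05 (limma on the within-screen log2 fold changes averaged over sgRNAs, Benjamini-Hochberg adjustment over the whole library). Over all 18638 genes, 5.25% were higher and 2.73% were lower. An SE given below is the one from limma, which pulls each gene's variance towards that of the library. The 6 genes were *PKM*, *ENO1* and *PGAM1*, which serve the last 3 steps to pyruvate, and *SLC2A1*, *PFKM* and *GPI*, which serve uptake and the upper pathway. The median log2 fold change of the 18 genes was 0.06, against −0.01 over all genes, and 13 of the 18 had the same sign in both screens. At an unadjusted limma p under 0.05 there were 7 of the 18 genes, the 6 called ones and *PFKP*, which was lower. At that p, 9.59% of all genes were higher and 8.04% lower.

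*PKM* (chr15:72199029-72231819, minus strand, GRCh38), which encodes the muscle-type pyruvate kinases of the last ATP-yielding step, changed most of the 18. Its 4 sgRNAs together had 1157 and 1436 scaled reads in the high population of replicates 2 and 3, against 226 and 206 in the low population. Both high libraries lay above both low libraries. Such a separation, given below for other genes too, uses the same values as the test and is no further support for a call. The share of all genes with such a separation was not computed. The log2 fold change was 2.32 in replicate 2 and 3.00 in replicate 3, and the mean of 2.66 (SE 0.15, n = 2 screens, limma FDR = 3.68e-07) is a 6.31-fold difference. It ranked 30 of 18638 genes from the highest fold change down.

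All 4 *PKM* sgRNAs were enriched in the high population of both screens. sgRNA 1 had 322 and 402 scaled reads in the high population, against 66 and 34 in the low population. For sgRNA 2 the high population held 234 and 273, against 50 and 19 in the low population. For sgRNA 3 the high population held 400 and 472, against 70 and 102 in the low population, and for sgRNA 4 it held 201 and 290, against 40 and 52. The larger *PKM* value of replicate 3 came with sgRNAs 1 and 2, whose log2 fold changes were 3.53 and 3.80 in replicate 3 and 2.26 and 2.20 in replicate 2, whereas sgRNAs 3 and 4 had 2.20 and 2.47 in replicate 3 and 2.49 and 2.32 in replicate 2. Tested one by one, the 4 passed with edgeR adjusted p values of 1.87e-10 to 2.10e-22.

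*ENO1* (chr1:8861000-8879190, minus strand, GRCh38), the widely expressed enolase that forms phosphoenolpyruvate, had the second largest change of the 18. The 4 sgRNAs had 3181 and 3728 scaled reads in the high population, against 1003 and 1012 in the low population, with no overlap. The screens gave nearly the same log2 fold change, 1.76 in replicate 2 and 1.83 in replicate 3, and the mean was 1.79 (SE 0.11, n = 2 screens, limma FDR = 6.16e-07), or 3.47-fold, at rank 121. The sgRNAs also lay close together although their representation differed: their mean log2 fold changes were 1.64, 2.08, 1.72 and 1.74, while sgRNA 3 had 1524 and 1844 reads in the high population and sgRNA 4 had 218 and 246. All 4 passed in edgeR, with adjusted p values of 5.31e-07 to 1.27e-44. *ENO2*, the neuronal enolase, had 1687 and 1561 scaled reads in the high population, against 1436 and 1541 in the low population, and its log2 fold change of 0.13 was not called (limma FDR = 0.659).

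*PGAM1* (chr10:97426191-97433444, plus strand, GRCh38), the phosphoglycerate mutase that supplies enolase, had 853 and 885 scaled reads in the high population, against 402 and 269 in the low population. The groups did not overlap, and the log2 fold changes of 1.05 in replicate 2 and 0.99 in replicate 3 averaged 1.02 (SE 0.11, n = 2 screens, limma FDR = 5.31e-05), a 2.03-fold difference at rank 384. The reads were spread unevenly over its sgRNAs. *PGAM1* sgRNA 1 was nearly absent from every library, T0 included (0 to 6 scaled reads), and sgRNA 2 had only 31 and 43 reads in the high population, against 14 and 30 in the low population. sgRNA 3, with 692 and 710 in the high population against 330 and 195 in the low population, carried most of the gene's reads and passed (edgeR adjusted p = 2.31e-15), as did sgRNA 4 with 130 and 133 against 58 and 44 (edgeR adjusted p = 0.024). With only the 2 sgRNAs that averaged at least 50 reads over the high and low libraries (sgRNAs 3 and 4), the *PGAM1* log2 fold change was 1.41. That filter used the compared reads themselves. sgRNA 4 met it with 149 and 112 unscaled reads in the high population, against 54 and 40 in the low population. The larger value is therefore no further support for the call.

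*SLC2A1* (chr1:42925353-42958893, minus strand, GRCh38), the GLUT1 transporter of basal glucose uptake, had 1815 and 1803 scaled reads in the high population, against 1130 and 1143 in the low population. Both high libraries were above both low ones, and the screens gave log2 fold changes of 0.61 and 0.66, with a mean of 0.64 (SE 0.11, n = 2 screens, limma FDR = 0.00219), or 1.56-fold. All 4 sgRNAs were positive in both screens, and sgRNAs 1 and 4 passed singly (edgeR adjusted p = 0.00246 and 1.06e-05). sgRNA 2 differed most between the screens, with log2 fold changes of 0.06 in replicate 2 and 0.64 in replicate 3.

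*GPI* (chr19:34359480-34402413, plus strand, GRCh38), the isomerase that turns glucose 6-phosphate into fructose 6-phosphate, had 1588 and 1492 scaled reads in the high population, against 1157 and 1197 in the low population. The libraries of the populations did not overlap, but the difference was the smallest of the 6, with log2 fold changes of 0.56 and 0.37 and a mean of 0.46 (SE 0.11, n = 2 screens, limma FDR = 0.0235), or 1.38-fold. Its sgRNAs divided: sgRNAs 1 and 2 averaged 0.74 and 0.71, and sgRNAs 3 and 4 averaged 0.29 and 0.11. Only sgRNA 2 passed on its own (edgeR adjusted p = 0.0221).

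Of the phosphofructokinase subunits, which together form the tetramer of the first committed step, 1 of 3 was called. *PFKM* (chr12:48105139-48146404, plus strand, GRCh38), the muscle subunit, had 818 and 678 scaled reads in the high population, against 554 and 475 in the low population, with log2 fold changes of 0.56 and 0.66 and a mean of 0.61 (SE 0.11, n = 2 screens, limma FDR = 0.00323). *PFKM* had the fewest reads per sgRNA of the 18 genes, and only sgRNA 4 passed singly, with 180 and 136 reads in the high population against 93 and 57 in the low population (edgeR adjusted p = 0.0471). *PFKL*, the liver subunit, was not called as a gene (log2 0.21, limma FDR = 0.364), yet its sgRNA 2 had 1064 and 988 reads in the high population, against 609 and 502 in the low population (edgeR adjusted p = 2.68e-10). Its other 3 sgRNAs averaged −0.11, 0.03 and 0.01, so that a single sgRNA carried the difference. *PFKP*, the platelet subunit, had the lowest value of the 18 genes, with 1317 and 1409 reads in the high population, against 1457 and 1770 in the low population, and a log2 fold change of −0.25 that did not pass (limma FDR = 0.272).

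The calls of *SLC2A1*, *GPI* and *PFKM* were sensitive to single libraries. All 3 were lost without high replicate 3, low replicate 2 or low replicate 3 (*SLC2A1* limma FDR = 0.0585, 0.107 and 0.0825, *GPI* 0.0565, 0.276 and 0.17, *PFKM* 0.0843, 0.124 and 0.408), and without high replicate 2 *GPI* (0.267) and *PFKM* (0.269) were. *PFKM* was also just outside the threshold when libraries rather than fold changes were fitted, with the replicate as a block (limma FDR = 0.0511) or without it (0.0545). *PKM*, *ENO1* and *PGAM1* kept their calls in all 13 alternatives tried, although 2 of these left out a medium library, which does not enter this comparison.

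The other 12 genes lay between −0.25 and 0.23 on the log2 scale, each with an SE of 0.11 to 0.12, where the smallest called difference of any gene in the library was 0.39. A smaller difference was not detectable here. *ALDOA*, the main aldolase, had the highest of these values at 0.23 (0.35 in replicate 2 and 0.10 in replicate 3, limma FDR = 0.344), and *ALDOC*, the brain aldolase, had −0.09. The hexokinases *HK1* and *HK2*, which start the pathway, were at −0.08 and 0.00. In the middle of the pathway *TPI1*, which interconverts the triose phosphates, was at −0.14, and *GAPDH*, which carries out the NAD+-dependent oxidation, at 0.00. *PGK1*, the first ATP-yielding kinase, was at −0.20 (limma FDR = 0.432). *LDHA* and *LDHB*, the subunits of lactate dehydrogenase, were at −0.21 (limma FDR = 0.347) and −0.01.

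The kinase *PGK1* acts just before *PGAM1* in the pathway. It had 730 and 857 scaled reads in the high population, against 827 and 813 in the low population, so that its groups overlapped. Its sgRNAs disagreed, with mean log2 fold changes of −0.20, 0.13, 0.36 and −1.07, and the lowest was sgRNA 4, which had 27 and 37 reads in the high population, against 59 and 77 in the low population (edgeR adjusted p = 0.324). Over the high and low libraries alone sgRNA 4 averaged under 50 reads, and leaving it out turned the *PGK1* value to 0.10, also not called. That filter used the compared reads themselves. sgRNA 4 missed it through 31 and 31 unscaled reads in the high population, against 55 and 70 in the low population. The change of sign is therefore no independent check.

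Across single sgRNAs, 71 of the 72 had enough reads to be tested in edgeR. Of these, 15 were higher in the high population and 0 lower (DESeq2 gave 12 higher and 0 lower). The background over 74312 tested sgRNAs was 2.95% higher and 1.55% lower. At an unadjusted edgeR p under 0.05, 2 of the 71 were lower, and the share over all sgRNAs at that p was not computed. The 15 were 4 of *PKM*, 4 of *ENO1*, 2 of *PGAM1*, 2 of *SLC2A1* and 1 each of *GPI*, *PFKL* and *PFKM*. The 4 sgRNAs of a gene share a target and are not replicates of the screen.

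The medium population shows where along the labeling range these knockouts were gained and lost. In low versus medium, 0 of the 18 genes were higher and 2 were lower, against 1.18% higher and 1.54% lower of all genes. *PKM* had 226 and 206 scaled reads in the low population, against 625 and 563 in the medium population (log2 −1.41, SE 0.10, n = 2 screens, limma FDR = 0.000475). *ENO1* had 1003 and 1012 in the low population, against 1831 and 1921 in the medium population (log2 −0.98, SE 0.11, n = 2 screens, limma FDR = 0.00214). Both genes were thus depleted from the low population in each screen without overlap. Neither call held without low replicate 2 or without low replicate 3 (*PKM* limma FDR = 0.0655 and 0.132, *ENO1* 0.0814 and 0.0877). The remaining 16 genes ranged from −0.34 for *PGAM1* (limma FDR = 0.195) to 0.17 for *LDHA*, and the 4 genes with an unadjusted p under 0.05 (*GPI* and *PGAM1* besides the 2 called) were all lower, where 5.94% of all genes were lower at that p. On sgRNA 3 alone, the only one with at least 50 reads on average over the low and medium libraries, *PGAM1* was at −0.85 and was called (limma FDR = 0.00112). This setting left out sgRNA 4, close to the threshold with 44 and 59 unscaled reads in the medium and 54 and 40 in the low population. sgRNA 4 was at 0.0012 (0.51 in replicate 2 and −0.51 in replicate 3), and sgRNA 2, also left out, at −0.50.

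In high versus medium, 3 of the 18 genes were higher and 0 were lower, against 1.7% higher and 0.0966% lower of all genes. *PKM* had 1157 and 1436 scaled reads in the high population, against 625 and 563 in the medium population (log2 1.25, SE 0.16, n = 2 screens, limma FDR = 0.0275). *ENO1* had 3181 and 3728, against 1831 and 1921 in the medium population (log2 0.82, SE 0.11, n = 2 screens, limma FDR = 0.029). *PGAM1* had 853 and 885, against 608 and 482 in the medium population (log2 0.68, SE 0.10, n = 2 screens, limma FDR = 0.0344). All 3 enzymes of the last steps were enriched in the high population in both screens, and for *PGAM1* the call was lost without high replicate 2 (log2 0.65, limma FDR = 0.0634). *SLC2A1* (log2 0.46, limma FDR = 0.161) and *PFKM* (0.45, limma FDR = 0.361) followed without passing. *PFKM* passed with the median over sgRNAs (0.41, limma FDR = 0.0438). Without medium replicate 3, which leaves 1 medium library, *PFKM* was at 0.72, and whether it passed in that fit is not given here. *HK1* had the lowest value (−0.31, limma FDR = 0.354). Of the 18 genes, 6 had an unadjusted limma p under 0.05, and of these *HK1* alone was lower. At that p, 6.62% of all genes were higher and 3.39% lower.

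Whether a gene shifted more on one side of the medium population than the other was tested as the sum of the low and high log2 values minus 2 times the medium one. None of the 18 genes passed in limma (0 at an FDR under 0.05), against 0.0376% higher and 0% lower of all genes. At an unadjusted limma p under 0.05 there was 1 of the 18, against 6.86% of all genes. The values ran from −0.55 for *HK1* to 0.34 for *PGAM1* (limma FDR = 0.801), and *PKM* and *ENO1* were both at −0.16 (limma FDR = 0.938 and 0.931). A difference between the sides was therefore not detected for *PKM* or *ENO1*, with an SE of at least 0.17 for each gene.

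Weighting the scaled reads of low, medium and high by the approximate share of cells in each gate gives the share of a knockout's reads in each population. For *PKM* 43.9% and 51.9% fell in the high gate, and 8.58% and 7.44% in the low gate, in replicates 2 and 3. For *ENO1* the high gate held 40.5% and 43.4% and the low gate 12.8% and 11.8%, and for *PGAM1* the high gate held 34.5% and 41.8% and the low gate 16.3% and 12.7%. These 3 were skewed most among the 18 genes in both screens. *SLC2A1* had 30.4% and 32.9% in the high gate and 18.9% and 20.9% in the low gate, *PFKM* 33.5% and 29.5% against 22.7% and 20.7%, and *GPI* 28.8% and 26.7% against 21.0% and 21.5%. The 12 uncalled genes had 21.7% to 27.9% in the high gate and 21.2% to 28.5% in the low gate, where the sgRNAs without a target had 23.8% and 24.0% in the high gate and 25.3% and 25.6% in the low gate. The shares take the gates as stated in the methods, so they are approximate.

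The comparison of the sorted cells with T0 asks which knockouts were lost or gained between day 0 and the sort. The log2 values of the 3 sorted populations were averaged with the gate weights before the T0 value was subtracted. Of the 18 genes, 5 were lower than at T0 and 0 higher, against 8.09% lower and 0.934% higher of all genes. The 5 were *PGAM1*, *ALDOC*, *ALDOA*, *PKM* and *PGK1*, and the median over the 18 was −0.16, against 0.03 over all genes and a mean of 0.22 for the sgRNAs without a target. At an unadjusted limma p under 0.05, 9 of the 18 were lower and 0 higher, against 12.6% and 8.39% of all genes.

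*PGAM1* sgRNAs were lost most. Their weighted reads in the sorted cells were 47.6% and 50.2% of T0, where they had 1297 and 1054 scaled reads. On the log2 scale these totals changed by −1.07 in replicate 2 and −0.99 in replicate 3. The tested measure averages logarithms over populations and sgRNAs instead, and was lower. The log2 fold change was −2.02 in replicate 2 and −1.05 in replicate 3 (mean −1.54, SE 0.17, n = 2 screens, limma FDR = 5.29e-05), and part of that distance between the screens came from sgRNA 1, with 6 reads at T0 in replicate 2 and 0 in replicate 3. sgRNAs 2, 3 and 4 changed by −1.84, −0.78 and −2.23, and each passed (edgeR adjusted p = 0.000171, 1.83e-07 and 1.06e-13). The *PGAM1* high population, with 853 and 885 reads, was still below the 1297 and 1054 reads of T0.

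The aldolases both fell against T0, without a call in high versus low. *ALDOC* sgRNAs had 69.2% and 78.4% of their T0 reads (log2 −0.59, SE 0.10, n = 2 screens, limma FDR = 0.00158), and *ALDOA* sgRNAs 77.2% and 73.7% (log2 −0.36, SE 0.09, n = 2 screens, limma FDR = 0.0271). *ALDOC* rested mainly on sgRNA 3, which fell by 1.40 on the log2 scale (edgeR adjusted p = 5.02e-05), and on sgRNA 1, with −0.52 (edgeR adjusted p = 0.00841), whereas sgRNA 2 had −0.13. For *ALDOA*, the 4 values lay closer together, from −0.26 to −0.48, and sgRNAs 3 and 4 passed. *PGK1* (log2 −0.33, SE 0.09, n = 2 screens, limma FDR = 0.0479) was just inside the threshold.

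*PKM* and *ENO1* differed from *PGAM1* in this comparison. The weighted *PKM* reads were 99.7% of T0 in both screens, and those of *ENO1* 100.2% and 104.4%. The log2 measure nevertheless called *PKM* (−0.34, SE 0.09, n = 2 screens, limma FDR = 0.0452), because it averages logarithms, which falls below the logarithm of the total when reads are spread unevenly over the populations. Of its sgRNAs only sgRNA 4 passed (log2 −0.91, edgeR adjusted p = 0.00693). *ENO1* had −0.04 (limma FDR = 0.833). *GAPDH* (−0.10, limma FDR = 0.594) and the other uncalled genes lay between −0.24 for *TPI1* and 0.18 for *PFKP*, of which sgRNA 1 was the only 1 of the 72 sgRNAs to pass upwards (log2 0.71, edgeR adjusted p = 0.00472). In all, 11 sgRNAs were lower than at T0 and 1 was higher of 71 tested, against 6.29% and 1.01% of 74415 tested sgRNAs.

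The *PGAM1* loss passed in all 15 alternatives tried and the other 4 calls did not. Without T0 replicate 2 only *PGAM1* was called, with limma FDR = 0.0528 for *ALDOC*, 0.15 for *ALDOA*, 0.189 for *PGK1* and 0.397 for *PKM*. Without T0 replicate 3 *ALDOC* was called too, and *ALDOA* (0.274), *PGK1* (0.367) and *PKM* (0.544) were not. Dropping a sorted library ended the call of *PKM* for 5 of the 6 libraries (all but the high one of replicate 3, limma FDR = 0.114 to 0.338), that of *PGK1* for 4 (all but the high one of replicate 3 and the medium one of replicate 2, 0.0757 to 0.159), and that of *ALDOA* for 3 (the high and medium ones of replicate 3 and the low one of replicate 2, 0.052 to 0.099). Centred on the sgRNAs without a target, which moved the median of all genes from 0.03 to −0.19, 10 of the 18 were lower, *SLC2A1*, *GPI*, *PFKM*, *TPI1* and *GAPDH* being added. In that setting 5420 of all 18638 genes were lower, against 1508 in the main test, so that calls rose over the whole library.

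Around these enzymes, 47 further genes of sugar metabolism in 4 lists were read in the same fits, and 1 was called (higher) in high versus low, where 5.25% of all genes were called higher and 2.73% lower. None of 15 alternative isozymes and transporters, such as *PKLR* (the liver pyruvate kinase) and *SLC2A3* (a high-affinity glucose transporter), passed, none of 11 genes of fructose 2,6-bisphosphate and gluconeogenic control, and none of 14 genes of lactate export and pyruvate entry into mitochondria. Their median log2 fold changes were −0.03, −0.03 and −0.05. Over the 47 genes 8 had an unadjusted limma p under 0.05, as had 17.6% of all genes, so neither count stood above the library, and the 46 uncalled ones ran from −0.41 to 0.32.

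The called gene was *PGD* of the pentose phosphate pathway (1 of 7), the dehydrogenase that oxidizes 6-phosphogluconate and yields NADPH. *PGD* sgRNAs had 1937 and 1955 scaled reads in the high population, against 514 and 524 in the low population, without overlap. The log2 fold changes were 1.93 and 1.83 (mean 1.88, SE 0.11, n = 2 screens, limma FDR = 4.62e-07). *PGD* was also lower in low versus medium (−0.83, limma FDR = 0.00573), higher in high versus medium (1.04, limma FDR = 0.0204) and lower than at T0 (−0.52, limma FDR = 0.0039). The T0 value averages logarithms, as for *PKM*, and its reads were uneven over the populations. It can therefore overstate the loss of *PGD* reads in total, which was not computed. *TALDO1*, the transaldolase of the nonoxidative branch, was at −0.41 in high versus low and was not called (limma FDR = 0.0998).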

How the data were processed

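The authors' counts of reads per sgRNA, made with MAGeCK 0.5.9.4, were deposited unnormalized for each of 4 lanes per library. Lanes were summed, since they differed by little more than sampling noise (a chi-square of 1.019 to 1.030 per degree of freedom). A further 4 columns match no sample and were not used. The libraries were brought to a common total (their mean), a pseudocount of 1 read was added, and values were log2-transformed. Fold changes were formed within a screen, the mean over a gene's sgRNAs was taken, and limma 3.58.1 (R 4.3.3) tested the 2 screens against 0, with adjustment over 18659 entries (18638 genes and 21 controls). For sorted cells versus T0, high, medium and low were weighted 0.25, 0.5 and 0.25. Single sgRNAs were tested on the counts with edgeR 4.0.16 (quasi-likelihood, replicate as a block), and DESeq2 1.42.0 was an alternative. No gene was removed as core-essential, unlike in the study's methods.

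The methods subtract within a replicate, so the main test is paired. Deviations of same-numbered libraries from the group means correlated at 0.09 to 0.13 among sorted populations and at 0.07 to 0.08 with T0. The limma SEs and p values rest on the spread between 2 screens, pulled towards the variance pooled over the library. The prior degrees of freedom of that pooling were 4.62 to 10.2 over the comparisons. The SE of a gene therefore reflects its own 2 values only in part. PCR reads lack molecular identifiers and so are not independent molecules. Symbols and coordinates came from GENCODE 44 (GRCh38), and where the sgRNAs cut was not analysed here, nor whether they also match other copies of a gene. All 18 genes were tested in every comparison, and all were named in high versus low. In the other comparisons the called genes and some uncalled ones were named. Values of single sgRNAs were given for some genes only. Of the lists, the called gene and a few uncalled ones were named. Counts over the lists also cover genes not reported here by name. The members and lists were chosen with earlier results of these data known. On simulated counts for high versus low (18638 genes), limma recovered 100% of genes changed by a log2 of 1, with 20 false calls, and edgeR 81.2% of such sgRNAs. For sorted cells versus T0 the shares were 100% (14 false calls) and 97.0%. The simulated counts had a fixed dispersion, no difference between screens and the same change in all sgRNAs of a gene. In the screen the sgRNAs of a gene often disagreed, so these shares need not hold there. Python 3.11.15 prepared the counts.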

Additional observations from a re-analysis of the deposited data

How the results depend on the processing

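With 2 screens and medians of 260 to 356 reads per sgRNA, no gene with a log2 fold change under 0.39 in size passed in high versus low. Leaving out a library leaves 1 sample in its population, which is then assumed to vary like the others. Over the 18 genes in high versus low and against T0, 225 log2 values kept direction and side of the threshold under the other settings, 9 lost and 5 gained a call and 13 changed sign; with 1 library of the comparison left out, 169, 30, 0 and 17 did. No value that changed sign was called. In high versus low, 6 genes were called in the main test and 5 when libraries were fitted with or without the replicate block. Of the 6, *SLC2A1*, *GPI* and *PFKM* lost their calls when single high or low libraries were left out, as given above. Leaving out a medium library repeats the main test, because the medium population does not enter this comparison. In low versus medium 2 were called, 3 with sgRNAs of at least 50 reads (adding *PGAM1*, on 1 of its 4 sgRNAs), and 0 to 2 with 1 library left out. Against T0, 5 genes were called in the main test, 10 centred on the sgRNAs without a target, 3 with the median over sgRNAs, 3 with the replicate block on libraries, 2 without it, and 1 to 4 with 1 library left out. Without the replicate block, edgeR called 12 sgRNAs in high versus low, against 15 with it, and 9 against T0, against 12 with it, and the pairing changed no count in low versus medium or high versus medium. Against T0, 4 to 12 sgRNAs were called with 1 library left out, the lowest without T0 replicate 2. Centring called 1189 genes of the library higher and 353 lower in high versus low, against 979 and 508 in the main test, and 15 higher and 5420 lower against T0, against 174 and 1508.

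Signs changed in high versus low for *HK2* with TMM (0.0029), centring (0.067) and the median over sgRNAs (0.022), for *LDHB* with centring (0.061), for *PGK1* with sgRNAs of at least 50 reads (0.095) and for *GAPDH* with the median (−0.0033). With 1 library left out, *HK1* ran from −0.21 to 0.063, *HK2* from −0.058 to 0.050, *TPI1* from −0.38 to 0.092, *GAPDH* from −0.092 to 0.093 and *LDHB* from −0.21 to 0.19. Against T0, *LDHB* changed sign with TMM (−0.0056) and centring (−0.21), as did *HK1* (−0.14), *PFKP* (−0.045), *ENO2* (−0.11) and *LDHA* (−0.12) with centring and *PFKL* with the median (0.065). With 1 library left out, *HK1* ran from −0.020 to 0.18, *HK2* from −0.35 to 0.16, *PFKL* from −0.030 to 0.020, *ENO1* from −0.093 to 0.0082, *LDHA* from −0.021 to 0.22 and *LDHB* from −0.087 to 0.099. The cause of these changes was not tested.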
